A study of Homo sapiens with 18 samples.

Results

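The comparison described here is that of HTOXAR3 cells treated with oxaliplatin (OXA) plus Curcumin against untreated HTOXAR3 cells. HTOXAR3 is an OXA-resistant subline of HT29, a human colorectal adenocarcinoma cell line, and was selected by growing HT29 in rising concentrations of the drug. The 6 arrays of the comparison, 3 of each group, were chosen by their labelled cell line and treatment from the 18 one-colour Agilent human arrays of the series. The treated cells received 30 µM OXA and 10 µM Curcumin for 24 h, and the basal cells, called untreated in the labels and vehicle-treated in the results of the study, received neither drug. The study looked for genes that had changed with acquired resistance and also responded to the combination, and for this it also profiled HTOXAR3 after OXA alone and the parental HT29 under the same conditions, with 10 µM OXA in HT29. HTOXAR3 is 1 subline, Curcumin alone was not analysed here, and the methods call the arrays of a group biological replicates without saying whether they came from separate cultures, so that p values measure the spread between these arrays.

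OXA is a platinum drug that forms adducts on DNA, blocks replication and activates the DNA damage response. Curcumin is a plant polyphenol that reacts with thiol groups of proteins. It is known to release the transcription factor NRF2 from its inhibitor KEAP1, to induce the heat shock response and to inhibit the activation of NF-κB, the factor that drives many chemokine genes and survival genes.

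Levels are log2 intensities after background correction (normexp) and quantile normalization, and a change is a difference of group means of such levels, so that a positive change is a higher signal after treatment. Between 52.4% and 62.2% of the spots of an untreated array and between 56.9% and 62.0% of those of a treated array were well above background, and 1 spot of replicate 3 of OXA plus Curcumin was saturated. Untreated replicate 2 had the lowest share. The arrays of the comparison lay on 2 slides, each with arrays of both groups, and no pair of arrays in the series correlated above 0.994. Of 12 markers of colorectal epithelium, 9 were well above background on all 6 arrays, among them *EPCAM*, *KRT8*, *KRT18* and *VIL1*, and their summed log2 level was 19.54 to 19.58 untreated and 19.73 to 19.74 after the combination. The marker *CDX2* was not well above background on 5 of the 6 arrays. None of 10 fibroblast markers and 4 of 8 endothelial markers were well above background on all 6 arrays, with summed levels of 7.22 to 7.35 and 8.96 to 9.23 untreated and of 6.97 to 7.28 and 8.78 to 9.04 after the combination. Of 9 leukocyte markers 6 were, including *PTPRC*, *CD14* and *CD68*, with a summed level of 11.68 to 11.75 untreated and 11.39 to 11.40 after the combination, where *CD14* was called at -0.55 and *CD68* at 1.44. In the epithelial list 3 markers were called higher and 1 lower, in the leukocyte list 2 and 1, in the endothelial list 0 and 2 and in the fibroblast list 0 and 0. The part of these markers in the results was not tested.

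OXA plus Curcumin changed a large share of the transcripts of HTOXAR3. Of 36204 gene names tested, 3234 (8.93%) were called higher and 3088 (8.53%) were called lower than in untreated cells by limma with Benjamini-Yekutieli (BY) adjustment, where a call needed a BY-adjusted p under 0.05 together with a change of over 1.2-fold. The median absolute log2 change of the called names was 0.62, while the median change over all names was -0.01. A change above 2-fold was found for 660 of the called names upwards and 534 downwards, and one above 4-fold for 103 and 57. Before adjustment 12089 names had a p under 0.05, and the less strict Benjamini-Hochberg (BH) adjustment gave 8499 calls. Of the called names, 5134 were protein-coding genes, out of 18661 such names tested, and 738 had no current symbol. Of all names, 11462 were not well above background on any of the 6 arrays. The shares over all names given below include these dim names, so that they are not matched in level to the gene lists. On arrays of whole cultures, a change in the share of cells that express a gene cannot be told apart from a change in the RNA of each cell.

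With slide as a block 6435 names were called. Within the slides alone, of which one held untreated replicates 1 and 2 and treated replicate 1, 116 and 165 were called. In each of these fits an arm held 1 array. The median size of change of the called names, which were chosen on these same arrays, was 0.61 and 0.62 log2 within the slides and 0.62 over both. With any 1 of the 6 arrays left out, 4975 to 5288 names were called. Scaling the arrays to their 75th percentile in place of quantile normalization moved the median change of all names to -0.18 (processed signal) or -0.16 (after normexp) and called 6502 and 6084 names.

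**Figure D1:**
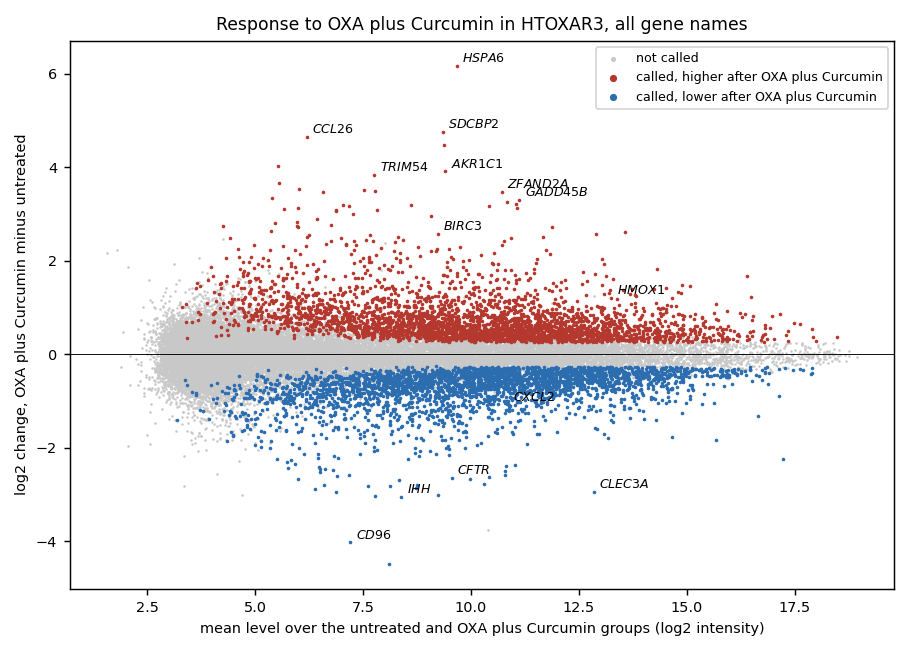
Log2 change between OXA plus Curcumin and untreated HTOXAR3 (vertical axis) against the mean level of the 2 groups (horizontal axis, log2 intensity) for all 36204 gene names, 1 point each. Red and blue points are the 3234 names called higher and the 3088 called lower, and grey points are not called; *HSPA6* stands highest at 6.17, and *CD96* stands among the lowest at -4.03.

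The largest rise was that of *HSPA6*, a member of the HSP70 family that unstressed cells hardly express. Its level was 6.64, 6.71 and 6.40 on the 3 untreated arrays and 12.82, 12.46 and 12.98 on the 3 treated arrays, a 72.2-fold rise (log2 6.17, SE 0.16, BY-adjusted p = 3.23e-10). The 2 groups were far apart, and OXA alone left the gene at 6.51, 6.61 and 6.47, within the untreated range. A second probe of *HSPA6* rose by less, 3.74, and the probe used lies at chr1:161496158-161496217 (GRCh37). Near-identical members of the HSP70 family can share signal on a probe, which was not tested.

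Next in size among genes well above background on all 6 arrays were *SDCBP2*, which encodes the scaffold protein syntenin-2, and *AKR1C1*, an aldo-keto reductase of steroid and carbonyl metabolism. *SDCBP2* rose from 7.02, 7.0 and 6.90 to 11.78, 11.59 and 11.82 (log2 4.76, SE 0.13, BY-adjusted p = 3.23e-10). *AKR1C1* rose from 7.48, 7.49 and 7.38 to 11.31, 11.37 and 11.42 (log2 3.92, SE 0.19, BY-adjusted p = 5.49e-08). In both genes the treated arrays lay close together and far above every untreated array. *AKR1C8*, a close relative, rose by 3.50, and since the sequences of this family are alike the signals of its members may not be separate. A second probe of *AKR1C1* rose by 2.19.

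*TRIM54*, a ubiquitin ligase best known from muscle, went from 5.70, 5.84 and 5.99 to 9.56, 9.57 and 9.90 (log2 3.83, SE 0.12, BY-adjusted p = 1.06e-09). *ZFAND2A*, a heat shock factor target that binds the proteasome, went from 9.03, 8.88 and 9.01 to 12.51, 12.22 and 12.60 (log2 3.47, SE 0.13, BY-adjusted p = 4.66e-09). The other rises named by size were those of the Rab exchange factor *DENND2C* (3.52), the stress-induced growth arrest gene *GADD45B* (3.31), the hypoxia- and iron-responsive *NDRG1* (3.26), the autophagosome gene *GABARAPL1* (3.22), the importin gene *KPNA7* (3.20) and *MAB21L4* (3.18). Second probes of *GABARAPL1* and *KPNA7*, well above background on all 6 arrays, rose by 3.74 and 3.29.

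*CD96*, a receptor known from T and NK cells, was among the largest falls. It fell from 9.16, 9.33 and 9.16 to 5.15, 5.33 and 5.10 (log2 -4.03, SE 0.28, BY-adjusted p = 1.19e-06). Every treated array lay far under every untreated array, and the arrays after OXA alone lay between the groups, at 6.32, 6.41 and 6.54.

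The other large falls were those of single genes of various kinds. *IHH*, the hedgehog ligand of the colon, fell from 10.00, 9.92 and 9.81 to 7.12, 6.94 and 6.51 (log2 -3.05, SE 0.23, BY-adjusted p = 3.00e-06). *CFTR*, the chloride channel, fell from 10.93, 10.84 and 10.84 to 8.29, 8.40 and 7.99 (log2 -2.64, SE 0.16, BY-adjusted p = 3.22e-07). The galectin gene *LGALS2* fell by 2.61, but its second probe, also well above background on all 6 arrays, stood at 0.24. *CLEC3A*, a C-type lectin known from cartilage, fell by 2.95 from a high level, 14.35, 14.29 and 14.29 untreated against 11.46, 11.47 and 11.18 treated. The matrix gene *THSD4* and the B cell scaffold gene *BANK1* fell by 2.94 and 2.45.

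A wider spread came with 4 further falls, those of *LRRC2*, *CD86*, *GPR179* and *ACKR5*. *ACKR5*, an atypical chemokine receptor, stood at 8.06, 6.67 and 8.29 untreated and at 5.24, 5.58 and 4.99 treated (log2 -2.40, SE 0.44, BY-adjusted p = 0.00804). *CD86*, a costimulatory receptor, stood at 11.90, 11.01 and 12.28 untreated and at 8.66, 9.57 and 9.06 treated (log2 -2.64, SE 0.35, BY-adjusted p = 5.05e-04). In all 4 genes untreated replicate 2 was the lowest untreated array and treated replicate 2 the highest treated array, and the groups still did not overlap. The call of *ACKR5* was lost without untreated replicate 1, untreated replicate 3 or treated replicate 3, and its change ran from -2.90 to -2.09 as each array was left out. A second probe of *LRRC2*, dim on all 6 arrays, stood at 0.35, and with the mean of both probes its call was lost (-1.18, BY-adjusted p = 0.155).

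**Figure D2:**
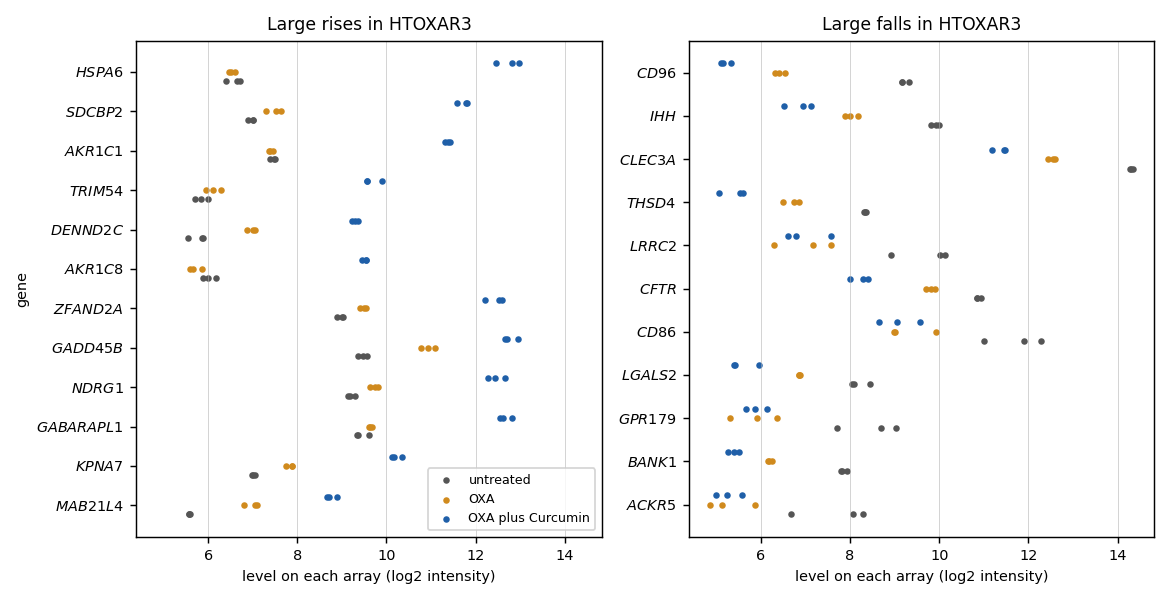
Level of 12 genes with large rises (left) and 11 with large falls (right) on each array of untreated (grey), OXA-treated (orange) and OXA plus Curcumin-treated (blue) HTOXAR3, in log2 intensity, 1 point per array. In all 23 genes the 3 blue points lie apart from the 3 grey points, and *HSPA6*, *AKR1C1* and *GABARAPL1* have their orange points beside the grey ones, whereas in *LRRC2*, *CD86*, *GPR179* and *ACKR5* orange and blue points mix.

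Some genes could be measured in 1 group only, and their change is then a bound, taken against the dimmest signal that still stood well above background on each array. *CCL26*, the chemokine eotaxin-3, was not well above background on any untreated array and reached 8.27, 8.39 and 8.90 after the combination, at least 16.4-fold higher (BY-adjusted p = 2.16e-07). *SELENOM*, an endoplasmic reticulum selenoprotein, was at least 7.42-fold higher, the calcium-binding protein gene *CALB1* at least 6.33-fold and the leukotriene hydroxylase gene *CYP4F3* at least 5.99-fold. In the other direction, *CTTNBP2* was at least 3.24-fold lower, the nuclear receptor gene *NR2E3* at least 3.05-fold, the matrix gene *MATN2* at least 2.98-fold and *TEX11* at least 2.52-fold. All 8 genes were called by the model, *CTTNBP2* no longer without untreated replicate 1 or without treated replicate 1.

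Of 32 NRF2 targets of the antioxidant response on the array, 18 rose, 0 fell and 14 were not called, beside 8.93% called higher over all names, with a median log2 change of 0.53 over the list. *HMOX1*, the heme oxygenase that degrades free heme, stood at 12.69, 12.63 and 12.60 untreated and at 13.98, 13.72 and 13.85 after the combination (log2 1.21, SE 0.11, BY-adjusted p = 1.76e-05). After OXA alone it was far lower, at 10.92, 10.72 and 10.71, so that the treatments stood on opposite sides of the untreated level. *OSGIN1*, an oxidative stress growth inhibitor, rose by 2.21, the ferritin light chain gene *FTL* by 1.66 and the autophagy receptor gene *SQSTM1* by 1.39. *FTL* showed 15.54, 15.52 and 15.60 untreated against 17.19, 17.17 and 17.29 treated, and 2 further probes of it rose by 1.53 and 1.74. The quinone reductase gene *NQO1* changed by 0.19 and was not called (BY-adjusted p = 0.424).

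Among 33 heat shock proteins and co-chaperones 12 rose (36.4%, beside 8.93% of all names) and 4 fell (12.1%, beside 8.53%), and the median log2 change was 0.20. Besides *HSPA6*, the inducible HSP70 gene *HSPA1A* rose from 13.79, 13.88 and 13.85 to 14.91, 14.61 and 14.96 (log2 0.99, SE 0.09, BY-adjusted p = 1.22e-05). The near-identical *HSPA1B* rose by 0.92, and the 2 probes may read each other's transcript. The HSP70 co-chaperone gene *BAG3* rose by 1.31, the endoplasmic reticulum co-chaperone gene *DNAJB9* by 1.61 and *DNAJB4* by 1.05. The 4 that fell, named after their values were seen, were the ubiquitin ligase gene *STUB1* (-0.70), the mitochondrial chaperonin genes *HSPE1* (-0.40) and *HSPD1* (-0.32) and the constitutive HSP70 gene *HSPA8* (-0.36).

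Sequences upstream of 3 heat shock genes that rose are shown because the heat shock factor binds inverted GAA units, here searched as GAANNTTC or TTCNNGAA on both strands, each of which reads the same on either strand, in the 250 bases before the RefSeq gene start (GRCh38.p14). A match was found for 17 of 29 genes of the list in the table (58.6%) against 14% of all 27305 genes, and for 7 of the 12 that rose and are in it against 10 of the other 17. The match was therefore as frequent in members that were not called higher as in those that were, and it does not show binding. Capitals mark the matches in the 200 bases before the start of *HSPA6* (chr1:161524340-161524539, + strand), *HSPA1A* (chr6:31815343-31815542, + strand) and *ZFAND2A* (chr7:1160197-1160396, - strand).
HSPA6: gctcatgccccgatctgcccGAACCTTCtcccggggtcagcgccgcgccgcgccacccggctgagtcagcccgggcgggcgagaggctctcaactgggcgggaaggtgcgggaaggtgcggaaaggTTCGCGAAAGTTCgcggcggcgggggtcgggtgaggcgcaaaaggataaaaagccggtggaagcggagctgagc
HSPA1A: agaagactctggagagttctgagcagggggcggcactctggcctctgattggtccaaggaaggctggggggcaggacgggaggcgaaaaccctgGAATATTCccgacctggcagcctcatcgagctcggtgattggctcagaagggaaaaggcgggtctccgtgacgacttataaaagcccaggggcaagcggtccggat
ZFAND2A: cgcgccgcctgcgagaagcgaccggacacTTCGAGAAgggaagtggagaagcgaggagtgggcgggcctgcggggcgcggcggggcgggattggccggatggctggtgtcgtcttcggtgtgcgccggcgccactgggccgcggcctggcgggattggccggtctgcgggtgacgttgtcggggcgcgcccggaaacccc
The matches begin 180, 74 and 69 bases before the start in *HSPA6*, the last 2 overlapping, 106 bases before it in *HSPA1A* and 171 bases before it in *ZFAND2A*. The antioxidant element, searched as TGACNNNGC on both strands, was found for 8 of 24 NRF2 targets in the table (33.3%) against 13.2% of all genes.

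In the ATF4 list of 31 genes of amino acid and protein stress, 9 rose and 9 fell, 29.0% each way beside 8.93% and 8.53% of all names. The stress factor *DDIT3* (CHOP) rose from 8.0, 8.07 and 8.19 to 10.29, 10.20 and 10.36 (log2 2.20, SE 0.06, BY-adjusted p = 7.61e-10), and the phosphatase subunit gene *PPP1R15A* (GADD34), the cystathionine lyase gene *CTH* and *SESN2* rose by 1.82, 1.13 and 1.08. The 9 that fell, 3 of which are named after their values were seen, included the serine synthesis genes *PHGDH* (-1.0), *PSPH* (-0.84) and *PSAT1* (-0.60). In the list of 26 endoplasmic reticulum genes 8 rose (30.8%) and 3 fell (11.5%, not far from the share over all names). The luminal chaperone gene *HSPA5* (BiP) fell from 11.31, 11.39 and 11.39 to 10.29, 10.21 and 10.37 (log2 -1.07, SE 0.08, BY-adjusted p = 3.20e-06), whereas the sensor gene *ERN1* and the oxidase gene *ERO1A* rose by 1.06 and 0.72. *ERN1* was well above background on only 2 of the 3 untreated arrays, so that the size of its rise rests in part on a dim value.

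Genes of cell division fell as a group. Of 50 genes of G2 and mitosis 40 fell (80.0%, beside 8.53% of all names) and 0 rose. Their median log2 change was -0.59 beside -0.01 over all names. *KIF20A*, a mitotic kinesin, fell from 10.56, 10.59 and 10.76 to 9.15, 9.10 and 9.14 (log2 -1.51, SE 0.09, BY-adjusted p = 2.14e-07). The spindle gene *HMMR*, the centromere kinesin gene *CENPE* and *DLGAP5* fell by 1.21, 1.18 and 0.97. *BIRC5*, which encodes survivin, fell from 15.50, 15.48 and 15.48 to 14.73, 14.83 and 14.71 (log2 -0.73, SE 0.06, BY-adjusted p = 3.82e-06). No list held a larger share of called members.

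Of 49 DNA replication genes 15 fell (30.6%) and 2 rose (4.08%), beside 8.53% and 8.93% of all names, with a median of -0.16. The helicase subunit gene *MCM6* fell by 1.13, the flap endonuclease gene *FEN1* by 0.76 and the polymerase gene *POLA1* by 0.70. In the folate and thymidylate list 10 of 20 genes fell (50%) and 0 rose. Those that fell included the dUTPase gene *DUT* (-1.05) and the reduced folate carrier gene *SLC19A1* (-1.25). Of 35 Fanconi anemia and homologous recombination genes 10 fell (28.6%) and 1 rose (2.86%). The falls were led by *RAD51B* (-0.94), *RMI1* (-0.68), *RMI2* (-0.58) and the nuclease gene *MRE11* (-0.54). With the mean of its probes, the second of which was dim, *RAD51B* stood at -0.35 and was not called (BY-adjusted p = 1.00). The call of *MRE11* was lost without untreated replicate 1, treated replicate 1 or treated replicate 3. Nucleotide excision repair removes platinum adducts. Of its 22 genes 2 were called higher (9.09%) and 1 lower (4.55%), beside 8.93% and 8.53% of all names. All 22 were well above background on all 6 arrays, whereas 11462 of the 36204 names were so on none, and the shares are not matched for this. *ERCC1*, a nuclease subunit of that pathway, rose from 12.34, 12.36 and 12.35 to 13.15, 13.20 and 13.18 (log2 0.83, SE 0.06, BY-adjusted p = 1.71e-06), and a second probe of it rose by 0.77. *ERCC6* (0.56) and *ERCC5* (-0.39) lost their calls with any of 4 arrays left out, and the other 3 probes of *ERCC5* disagreed in sign.

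Of 21 cyclin-dependent kinase inhibitors and G1 cyclins 5 rose (23.8%, beside 8.93% of all names) and 2 fell (9.52%, about the 8.53% of all names), with a median of -0.11. *CDKN1A*, which encodes p21, stood at 5.72, 5.59 and 5.91 untreated and at 8.16, 8.13 and 8.38 after the combination (log2 2.48, SE 0.14, BY-adjusted p = 1.39e-07), and *CDKN2B* (p15) rose by 0.95. *CCND1* (cyclin D1) rose by 0.27, a change close to the threshold (BY-adjusted p = 0.0309) that was lost with any 1 array left out. The repressor gene *E2F7* fell by 0.91. *CDKN2C* fell by 0.43 and was likewise lost with any 1 array left out. Outside this list, the antiproliferative gene *BTG2* fell from 11.18, 11.05 and 11.10 to 9.10, 9.12 and 9.28 (log2 -1.94, SE 0.27, BY-adjusted p = 7.80e-04) and *CYFIP2* by 1.10 (second probe -0.26). *MDM2*, a ubiquitin ligase gene, was not called, at -0.14. The other 3 probes of *MDM2* ran from -0.71 to 0.13.

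Among 21 genes of the BCL2 family 6 rose (28.6%) and 3 fell (14.3%), beside 8.93% and 8.53% of all names. The proapoptotic *BIK* and *BMF* rose by 1.05 and 0.84, the antiapoptotic *BCL2L1* (BCL-XL) rose by 0.97 from 10.45, 10.51 and 10.59 to 11.45, 11.48 and 11.54, and the proapoptotic *BBC3* (PUMA) fell by 0.87. *BCL2* was not called (-0.21), and a second probe of it, well above background on 3 of 6 arrays, stood at -1.11. With the mean of its probes *BCL2* was called lower (-0.66, BY-adjusted p = 0.00170). The kinase gene *AKT1* fell from 12.47, 12.53 and 12.61 to 11.90, 11.98 and 11.94 (log2 -0.60, SE 0.09, BY-adjusted p = 0.00156).

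Of 46 NF-κB subunits, inhibitors and targets 22 rose and 1 fell, or 47.8% and 2.17% beside 8.93% and 8.53% over all names, with a median of 0.31. *BIRC3*, the apoptosis inhibitor cIAP2, rose from 7.85, 7.94 and 8.01 to 10.53, 10.47 and 10.54 (log2 2.58, SE 0.09, BY-adjusted p = 3.16e-09). The adhesion molecule gene *ICAM1* rose from 7.13, 7.08 and 7.16 to 9.27, 9.33 and 9.38 (2.20, SE 0.07, BY-adjusted p = 2.75e-09), and the subunit gene *NFKB2* by 1.54. After OXA alone the levels were 10.58, 10.53 and 10.43 for *BIRC3*, 9.14, 9.10 and 8.99 for *ICAM1* and 9.35, 9.47 and 9.39 for *NFKB2*. *RELA*, which encodes p65, rose by 0.39 (BY-adjusted p = 0.00182), the inhibitor gene *NFKBIA* was not called (-0.14), and the cyclooxygenase gene *PTGS2* was the 1 member that fell, by 1.39.

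In the list of 20 CXC and CC chemokines 1 rose and 2 fell, 15% in all beside 17.5% of all names. *CXCL2*, a neutrophil attractant, fell from 11.48, 11.28 and 11.38 to 10.38, 10.28 and 10.28 (log2 -1.07, SE 0.13, BY-adjusted p = 1.86e-04), and a second probe of it stood at -0.65. *CXCL1*, its close relative, stood at 12.04, 12.11 and 12.26 untreated and at 11.67, 11.52 and 11.56 treated, which did not overlap but missed the threshold (log2 -0.55, SE 0.13, BY-adjusted p = 0.0638). A second probe of it stood at -0.30. The change was called with a normexp offset of 50, with a filter on dim probes and with BH adjustment. *CXCL8* (interleukin-8) stood at 9.34, 9.32 and 9.31 untreated and at 9.41, 9.08 and 9.24 treated, with the groups overlapping (log2 -0.08, SE 0.21, BY-adjusted p = 1.00), and *CXCL3* changed by 0.10. *CCL15* fell by 0.68 and the membrane-bound *CXCL16* rose by 0.59.

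The proximal promoters of 3 of these chemokines and of *ICAM1* and *BIRC3* are shown because all 5 carry a κB-like match although their levels moved differently. The letters searched were GGNNNTTCC on both strands (GGAANNNCC on the other strand), in the same 250 bases before the start, where 20.2% of all genes hold a match. It was found for 22 of 35 NF-κB genes in the table (62.9%), in 12 of the 19 that rose and in 10 of the other 16, and for 10 of 16 chemokines (62.5%). Capitals mark the matches in the 200 bases before the start of *CXCL1* (chr4:73869193-73869392, + strand), *CXCL2* (chr4:74099196-74099395, - strand), *CXCL8* (chr4:73740369-73740568, + strand), *ICAM1* (chr19:10270920-10271119, + strand) and *BIRC3* (chr11:102317284-102317483, + strand).
CXCL1: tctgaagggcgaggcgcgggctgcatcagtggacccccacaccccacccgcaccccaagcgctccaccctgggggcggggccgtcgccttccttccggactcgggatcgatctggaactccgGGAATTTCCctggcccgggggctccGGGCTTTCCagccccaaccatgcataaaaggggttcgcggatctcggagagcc
CXCL2: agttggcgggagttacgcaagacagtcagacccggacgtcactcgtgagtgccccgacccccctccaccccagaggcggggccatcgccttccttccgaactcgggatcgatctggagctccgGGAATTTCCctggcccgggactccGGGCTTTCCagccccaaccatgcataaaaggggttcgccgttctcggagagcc
CXCL8: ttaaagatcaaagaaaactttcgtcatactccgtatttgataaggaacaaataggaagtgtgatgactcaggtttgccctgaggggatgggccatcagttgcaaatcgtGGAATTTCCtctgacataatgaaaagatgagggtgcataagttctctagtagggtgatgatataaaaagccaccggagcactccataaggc
ICAM1: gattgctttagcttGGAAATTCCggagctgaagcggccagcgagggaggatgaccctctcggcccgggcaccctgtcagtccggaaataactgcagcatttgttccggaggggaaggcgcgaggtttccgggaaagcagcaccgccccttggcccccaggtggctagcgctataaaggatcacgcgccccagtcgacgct
BIRC3: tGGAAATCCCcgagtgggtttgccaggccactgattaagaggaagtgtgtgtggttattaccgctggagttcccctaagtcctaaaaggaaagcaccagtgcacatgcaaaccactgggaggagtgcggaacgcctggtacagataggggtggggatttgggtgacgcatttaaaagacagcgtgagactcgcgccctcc
*CXCL1* and *CXCL2* each hold 2 matches, beginning 78 and 53 and 77 and 53 bases before the start, and the matches of *CXCL8*, *ICAM1* and *BIRC3* begin 91, 186 and 199 bases before it.

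**Figure D3:**
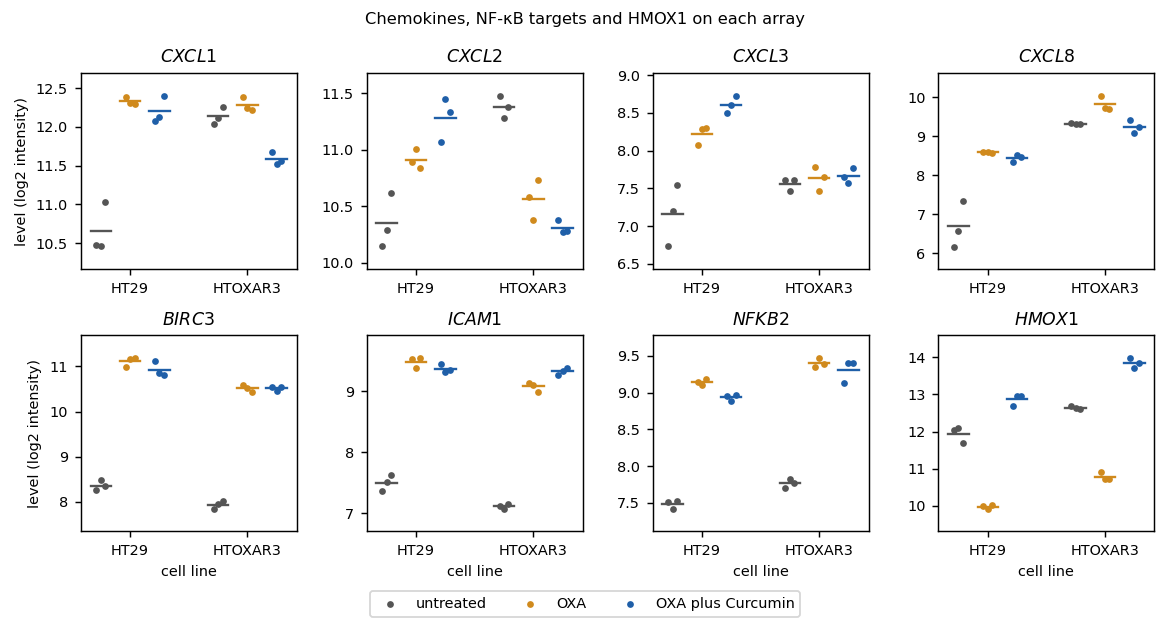
Level of 4 chemokine genes, 3 NF-κB target genes and *HMOX1* on each array of HT29 and HTOXAR3, in log2 intensity, with 1 point per array and a bar at the mean of the 3 arrays of a group (grey untreated, orange OXA, blue OXA plus Curcumin; the vertical scale differs between panels). After the combination *CXCL1* and *CXCL2* are above untreated in HT29 and below it in HTOXAR3, *BIRC3*, *ICAM1* and *NFKB2* rise alike in both lines, and *HMOX1* is below untreated after OXA and above it after the combination.

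Immediate early genes rose in 16 of 35 cases (45.7%) and fell in 2 (5.71%), beside 8.93% and 8.53% of all names. The matricellular gene *CCN1* rose from 11.66, 11.32 and 11.83 to 14.16, 14.06 and 14.33 (log2 2.58, SE 0.13, BY-adjusted p = 8.41e-08), the ERK phosphatase gene *DUSP5* by 2.08, and the transcription factor genes *KLF4* and *BHLHE40* by 1.39 and 1.10. In the list of EMT and matrix genes 16 of 44 rose (36.4%) and 5 fell (11.4%, not far from the 8.53% of all names). The urokinase receptor gene *PLAUR* rose from 9.68, 9.72 and 9.73 to 11.47, 11.46 and 11.57 (log2 1.79, SE 0.05, BY-adjusted p = 7.61e-10), the EMT factor gene *SNAI1* by 1.79, *TIMP2* by 1.68 and the laminin gene *LAMA3* by 1.47 (second probe 0.88). The epithelial cadherin gene *CDH1* also rose, by 0.32, and is named after its value was seen.

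Of 37 genes of glycolysis and hypoxia 12 rose (32.4%, beside 8.93% of all names) and 4 fell (10.8%, not far from the 8.53% of all names). Besides *NDRG1*, the lipoprotein lipase inhibitor gene *ANGPTL4* rose from 6.35, 6.18 and 6.27 to 9.22, 9.32 and 9.55 (log2 3.09, SE 0.25, BY-adjusted p = 4.21e-06) and the adrenomedullin gene *ADM* by 1.94. The carbonic anhydrase gene *CA12* fell from 8.90, 8.83 and 8.81 to 7.0, 6.86 and 6.54 (log2 -2.05, SE 0.11, BY-adjusted p = 1.37e-07).

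Cholesterol genes fell in 14 of 29 cases (48.3%, beside 8.53% of all names) and rose in 0, with a median of -0.32. The regulator gene *SREBF1* fell by 1.15 (second probe -0.23), the sterol sensor gene *INSIG1* by 1.07 and *HSD17B7* by 0.72. Among metallothioneins and zinc transporters 11 of 27 fell (40.7%) and 2 rose (7.41%), beside 8.53% and 8.93% of all names. *MT1G* fell by 0.99 and *MT1M* by 0.76, the zinc exporter gene *SLC30A1* rose by 0.78, and the fall of *SLC39A5* (-0.83) was lost with any of 4 arrays left out. Metallothionein genes are alike in sequence and their probes may share signal. Among 19 iron genes 2 rose (10.5%) and 3 fell (15.8%), not far from the 8.93% and 8.53% of all names. The reductase gene *STEAP3* fell by 1.34 (second probe -0.18), the iron exporter gene *SLC40A1* by 1.15 and *IREB2* by 0.42.

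In the Wnt and stem cell list 4 of 24 rose (16.7%) and 6 fell (25%), beside 8.93% and 8.53% of all names. Among them were *CD44* at -1.57 (second probe 0.24), the stem cell receptor gene *LGR5* at -1.02, *EPHB3* at 1.12 and *BAMBI* at 0.93. In the enterocyte and goblet cell list 5 of 38 rose and 6 fell, or 13.2% and 15.8%, not far from the shares of 8.93% and 8.53% over all names, with the adhesion molecule genes *CEACAM1* (-1.59, second probe -0.77) and *CEACAM6* (-0.91) and the mucus protein gene *FCGBP* (-1.23) lower and the peptidase gene *DPP4* (0.84) higher. Of 50 ribosome biogenesis genes 12 fell (24%) and 3 rose (6%), beside 8.53% and 8.93% of all names. The falls were led by *BOP1* (-1.18) and the polymerase I factor gene *UBTF* (-1.10). In the list of 12 genes of the aryl hydrocarbon receptor, 8.33% rose and 25% fell, beside 8.93% and 8.53% of all names. The 1 that rose was *TIPARP* (0.39). With the mean of its probes it stood at 0.52 and was not called (BY-adjusted p = 0.0823). The 3 that fell were *UGT1A6* (-1.23, second probe -0.49), *CYP1B1* (-0.68) and *SLC7A5* (-0.57).

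Of 20 platinum and drug transporters and conjugating enzymes 5 rose (25%) and 3 fell (15%), beside 8.93% and 8.53% of all names. The efflux pump gene *ABCG2* fell from 8.65, 8.29 and 8.42 to 6.94, 7.0 and 6.87 (log2 -1.52, SE 0.11, BY-adjusted p = 1.57e-06). *ABCB1*, another efflux pump, rose by 0.80, a call lost with the mean of all its probes (0.43), the copper transporter gene *SLC31A2* rose by 0.80 and the glutathione transferase gene *MGST1* by 0.63.

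**Figure D4:**
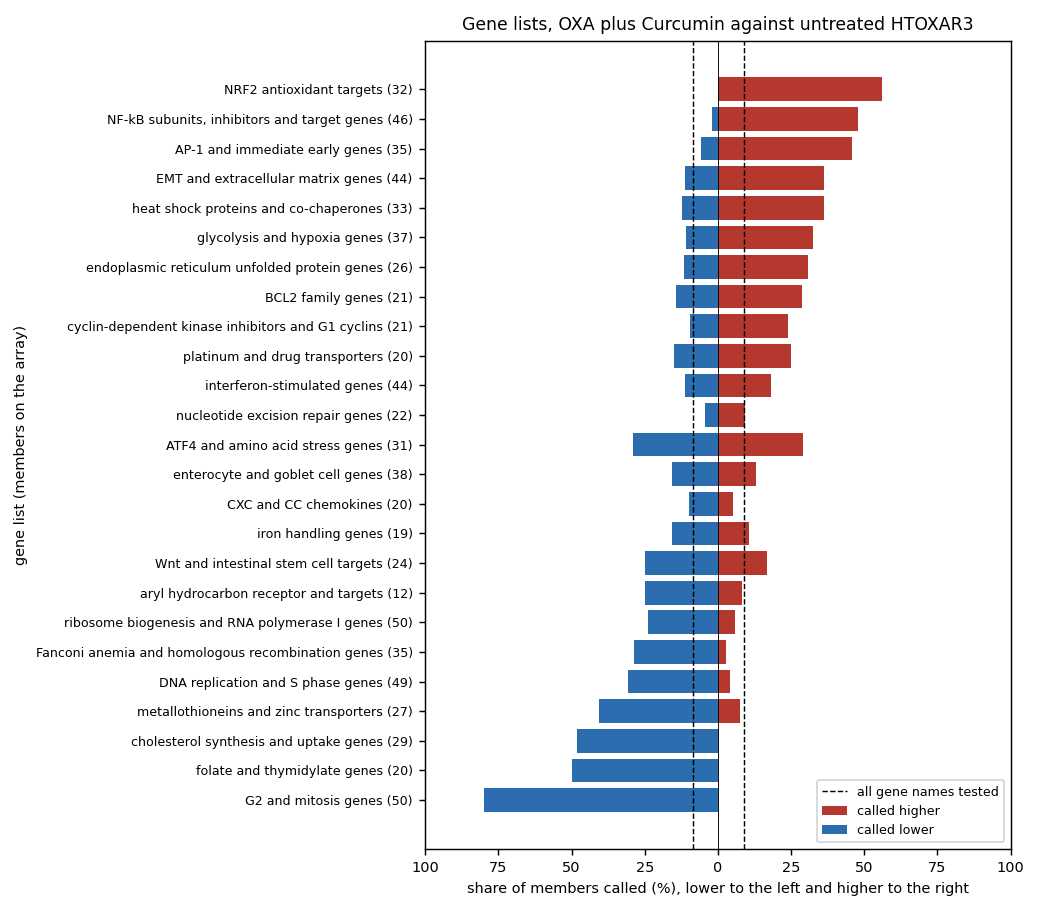
Share of the members of each of 25 gene lists called higher (red, to the right) and called lower (blue, to the left) after OXA plus Curcumin in HTOXAR3, in percent, with the number of members on the array in brackets. Dashed lines mark the shares among all gene names tested, 8.93% higher and 8.53% lower; NRF2 targets reach furthest to the right (56.2%) and G2 and mitosis genes furthest to the left (80.0%).

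To see where the combination differed from OXA alone, the 3 arrays of OXA plus Curcumin were tested against the 3 of OXA alone in HTOXAR3. Here 1592 names (4.40%) were called above OXA and 1607 (4.44%) below it by limma with BY adjustment, 9265 reached an unadjusted p below 0.05, and 261 and 101 of the calls passed 2-fold. Same-numbered arrays of these groups lay on the same slide and deviated together. With the replicate number as a block within the 6 arrays, which leaves few degrees of freedom, 0 names were called (8563 at an unadjusted p below 0.05), and with the block within each line in the fit of all 18 arrays 2607 were, *IFITM1* not among them (BY-adjusted p = 0.054). With slide as a block 3304 names were called, and within the slides alone, with 1 array in an arm, 4 and 8. The median size of the called differences was 0.52 and 0.54 log2 within the slides and 0.53 over both, again over names chosen on these arrays.

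Among genes well above background on all arrays compared, those furthest above OXA alone were *HSPA6* (6.23, BY-adjusted p = 6.91e-10), *SDCBP2* (4.24), *AKR1C1* (3.96), *AKR1C8* (3.81) and *TRIM54* (3.56). *CCL26*, dim on every untreated array, was above OXA by 4.12 in the fit. *HMOX1* was above OXA by 3.07 (BY-adjusted p = 1.59e-08) and *HSPA1A* by 1.57 (BY-adjusted p = 9.86e-07). In the NRF2 list 23 of 32 members were above OXA and 0 below, beside 4.40% and 4.44% of all names. *NQO1*, not called against untreated cells, was 1 of them (0.77, BY-adjusted p = 3.05e-05), its response being -0.57 to OXA and 0.19 to the combination. Against untreated cells the median log2 change of the NRF2 list was -0.05 after OXA and 0.53 after the combination; both share the untreated arrays.

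Among the genes furthest below OXA alone were the urea transporter gene *SLC14A1* (-2.05, BY-adjusted p = 3.37e-05), the cytidine deaminase gene *APOBEC3G* (-2.02, BY-adjusted p = 0.00138) and the interferon-stimulated genes *IFITM1* (-1.80, BY-adjusted p = 0.0234) and *HERC5* (-1.66, BY-adjusted p = 2.53e-04). *HERC5*, a ligase for the ubiquitin-like ISG15, stood at 6.76, 6.73 and 6.80 untreated, at 8.23, 8.35 and 8.36 after OXA and at 6.55, 6.92 and 6.48 after the combination, so that the latter overlapped the untreated arrays. *APOBEC3G* stood at 7.61, 7.65 and 7.63 untreated, at 8.09, 8.10 and 8.09 after OXA and at 5.96, 6.19 and 6.06 after the combination. The call of *IFITM1* was lost with any 1 of the 6 arrays left out.

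Of 44 interferon-stimulated genes 17 were below OXA alone and 2 above, beside 4.44% and 4.40% of all names, and the others were not called. The median difference was -0.45 beside -0.02 over all names. Against untreated cells, their median was 0.47 after OXA and -0.01 after the combination, values that share the untreated arrays and, with the difference above, the treated ones. After the combination 8 of them rose (18.2%) and 5 fell (11.4%) against untreated cells, beside 8.93% and 8.53% of all names. Those that rose most were the regulators *IRF7* (1.19) and *STAT2* (0.97) and the exonuclease gene *ISG20* (1.10), and *CMPK2* fell by 1.03, a call lost with the mean of its probes (-0.13). *IRF7* and *STAT2* were also the 2 members above OXA alone, by 0.57 and 0.53. *IFIT1*, *IFIT2*, *IFIT3* and *OASL*, named after their values were seen, were below OXA by 1.32, 1.16, 1.12 and 1.26 and were not called against untreated cells.

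Against OXA alone, 18 of 49 replication genes, 19 of 50 G2 and mitosis genes, 12 of 35 homologous recombination genes and 9 of 20 folate genes were called below OXA and 0 above, beside 4.44% and 4.40% over all names, and the other members of these lists were not called. In the cholesterol list 8 of 29 were above OXA and 1 below, beside the same shares. *INSIG1* was above OXA by 1.00, its response being -2.07 to OXA and -1.07 to the combination. Of the 46 NF-κB genes 6 were above OXA and 4 below, beside 4.40% and 4.44% of all names. The chemokine *CXCL1* was below OXA by 0.70 (BY-adjusted p = 0.0220), whereas *CXCL2* (-0.26) and *CXCL8* (-0.59) were not called. *BIRC3* and *NFKB2* differed from OXA alone by -0.00 and -0.09, each with an SE under 0.10, and *ICAM1* by 0.25 (SE 0.07, BY-adjusted p = 0.386) with its arrays above those of OXA.

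The response of HTOXAR3 was then set against that of HT29 to its combination, which held 10 µM OXA in place of 30 µM, so that cell line and OXA dose cannot be told apart. The arrays of the 2 responses are separate. Of the 6322 names called in HTOXAR3, 6128 had a fitted change of the same sign in HT29 and 194 of the opposite sign. In both lines 4680 were called in the same direction and 18 in opposite directions. Across the 17482 names well above background on all 12 arrays the responses correlated at r = 0.846, and across all names at 0.608; genes are not independent replicates. *HSPA6* rose by 6.04 in HT29, *SDCBP2* by 4.07, *ZFAND2A* by 3.25 and *GADD45B* by 3.39.

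A difference between the 2 responses was called for 114 names above 0 (0.315%) and 195 below 0 (0.539%) by limma with BY adjustment, and 5206 reached an unadjusted p below 0.05. Names above 0 made up 36.9% of these calls, and 47.3% or 48.1% when the arrays were scaled to the 75th percentile of the processed signal or of the normexp values. The largest called difference among genes well above background on all 12 arrays was that of *TRIM54*, which stood at 9.60, 9.59 and 9.69 in untreated HT29 and at 9.70, 9.74 and 9.44 after its combination, beside its rise from 5.70 to 5.99 up to 9.56 to 9.90 in HTOXAR3 (difference 3.83, SE 0.17, BY-adjusted p = 6.36e-07). After the combination the 2 lines stood at similar levels of this gene. *PDE6G*, a phosphodiesterase subunit known from the retina, and the matrix gene *SPON2* rose by 2.13 and 1.82 in HTOXAR3 and by 5.05 and 4.28 in HT29 (differences -2.92 and -2.46, BY-adjusted p = 6.36e-07 and 0.00146). *NHLRC4* changed by 0.20 in HTOXAR3 and 2.25 in HT29.

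The chemokines *CXCL1* and *CXCL2* were among the 5 largest negative differences of genes well above background on all 12 arrays. *CXCL1* changed by -0.55 in HTOXAR3 and rose by 1.55 in HT29 (difference -2.10, SE 0.19, BY-adjusted p = 5.73e-04), and *CXCL2* changed by -1.07 and 0.93 (difference -2.0, SE 0.18, BY-adjusted p = 5.73e-04). *CXCL8* and *CXCL3* rose by 1.75 and 1.45 in HT29 and were not called in HTOXAR3. Their differences, -1.83 and -1.35, lay near the threshold (BY-adjusted p = 0.0376 and 0.0488), and each call was absent from 10 of the 12 fits without 1 array. Of 20 chemokines 4 had a called negative difference and 0 a positive one, where 0.539% of all names had a negative one. There were also 4 negative differences in each of the lists of 44 epithelial-mesenchymal transition and matrix genes, 38 enterocyte and goblet cell genes and 44 interferon-stimulated genes.

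Among positive differences, *SLC19A1*, *CHLSN*, *ARFRP1* and *PIGQ* fell less in HTOXAR3 than in HT29. *SLC19A1* changed by -1.25 against -3.42 (difference 2.17, BY-adjusted p = 8.12e-04) and *CHLSN* by -1.03 against -2.88 (difference 1.85, BY-adjusted p = 1.18e-06). *ARFRP1* changed by -1.20 against -2.95, with a further probe at -0.09 in HTOXAR3, and with the mean of its probes the difference was 0.62 and not called (BY-adjusted p = 0.227). *PIGQ* changed by -1.66 against -3.40, and the call of *PIGQ* was absent from 10 of the 12 fits without 1 array. *BOP1* changed by -1.18 against -2.60 (difference 1.41, BY-adjusted p = 8.02e-05), and *PLAUR* rose by 1.79 against 0.88 (difference 0.91, BY-adjusted p = 3.37e-04). *CD96*, dim in HT29, changed by -4.03 in HTOXAR3 and stood at -0.25 in HT29, and *CCL26* rose by 4.65 against 1.70. The fitted values of *CD96* and *CCL26* rest in part on dim groups. A difference between the lines was called for 0 of 32 antioxidant, 1 of 33 heat shock and 0 of 50 G2 and mitosis genes, about the share over all names. In the last list the median log2 changes were -0.59 in HTOXAR3 and -0.56 in HT29.

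**Figure D5:**
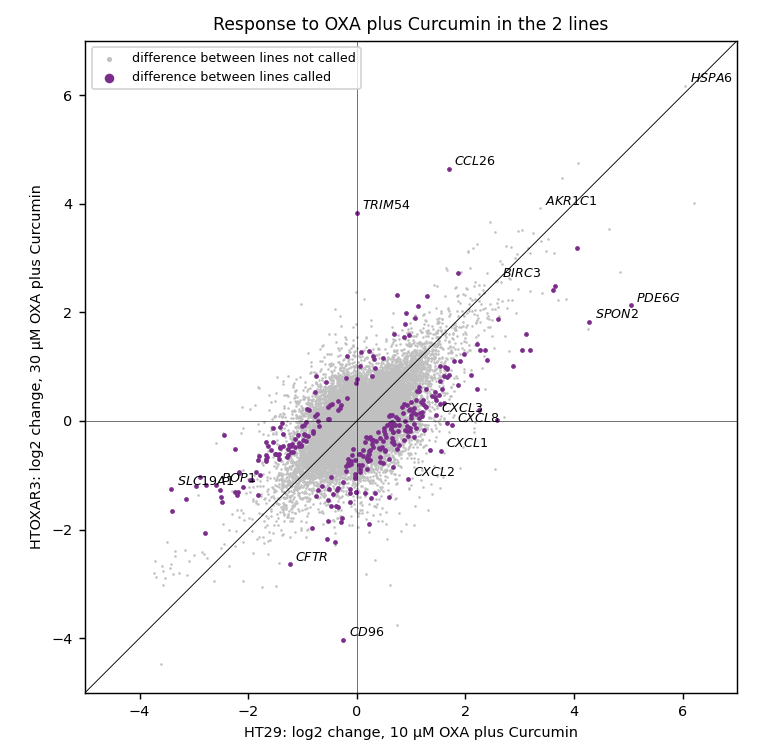
Log2 change after OXA plus Curcumin in HTOXAR3 (vertical axis, 30 µM OXA) against that in HT29 (horizontal axis, 10 µM OXA) for every gene name, 1 point each, with the line of equal change. Purple points are the 309 names with a called difference between the responses; *HSPA6*, *AKR1C1* and *BIRC3* lie near the line, *TRIM54* and *CCL26* lie above it, and *CXCL1*, *CXCL2*, *PDE6G* and *SPON2* lie below it.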

How the data were processed

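The 6 arrays of the comparison and the other 12 of the series were 1-colour Agilent human arrays. The deposited scanner files hold the intensity of each spot as Feature Extraction 10.7.3.1 wrote it, with probe positions on GRCh37. Mean signals were background-corrected with normexp (offset 0) and quantile normalized in limma 3.58.1 (R 4.3.3). The offset of the authors is not given in the sources used here. Control spots were left out, spots of a probe were averaged, and each name was represented by its probe with the highest mean level over all 18 arrays, which gave 36204 names from 50599 probes. Names were matched to current symbols through accessions or symbols of the reference tables where possible, and 13606 were not matched. Groups came from the labelled cell line and treatment. A linear model with 6 groups was fitted to all 18 arrays, and calls needed a BY-adjusted p under 0.05 with a change of over 1.2-fold. The number of arrays limits the precision. The deposited series table holds log2 values of the authors with 36204 unnamed lines and was used for counts of calls only.

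Genes were named by size of change (12 in each direction among names well above background on all 6 arrays, 4 in each direction from or to dim groups), by list (up to 4 members with the largest called changes), by size of the 2 tested differences (5 in each direction) and by the question of the study. The members and lists were chosen with earlier results of these data known. Same-numbered arrays of OXA and of OXA plus Curcumin deviated together (correlations of deviations from the group means 0.195, 0.109 and 0.187). For untreated and combination arrays the correlations were of mixed sign (0.097, -0.172 and 0.184), and replicate 2 of these groups lay on different slides. Promoter windows were taken from RefSeq (GRCh38.p14), and coordinates of the 2 builds were not mixed. The alternatives were other backgrounds, scalings, probe rules, filters, adjustments, folds, sample sets and blocks, and leaving out each array. Some named genes and 1 list are not reported here. The method was tested on simulated data.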

Additional observations from a re-analysis of the deposited data

Results flagged for a closer look

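The responses of HTOXAR3 and HT29 to OXA plus Curcumin differed for 309 names by the interaction term of the model (limma with BY adjustment), and the named genes among them are given here as HTOXAR3 minus HT29 on the log2 scale. Those of *CCL26* and *CD96* are fitted values that rest in part on groups not well above background and are no measured sizes. OXA dose and cell line cannot be told apart in all of these.

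Above 0 were *TRIM54* (3.83), *CCL26* (2.95), *SLC19A1* (2.17), *CHLSN* (1.85), *ARFRP1* (1.75), *PIGQ* (1.74), *BOP1* (1.41), *PLAUR* (0.91) and the amino acid transporter gene *SLC7A5* (0.60). Below 0 were *CD96* (-3.78), *PDE6G* (-2.92), *SPON2* (-2.46), *CXCL1* (-2.10), *NHLRC4* (-2.05), *CXCL2* (-2.0), *CXCL8* (-1.83), *CFTR* (-1.41), *CXCL3* (-1.35) and *ISG20* (-0.69). The calls of *CFTR*, *ISG20*, *SLC7A5*, *CXCL3*, *CXCL8* and *PIGQ* were lost in 11, 10, 9, 10, 10 and 10 of the 12 fits that left out 1 array. With the mean of all probes of a name, those of *ARFRP1* (difference then 0.62), *NHLRC4* (-1.33), *PIGQ* (1.90), *SPON2* (-1.29) and *CXCL3* (-1.35) were lost. The differences of *PIGQ* and *CXCL3* were no smaller than in the main fit. With slide as a block those of *CFTR*, *ISG20*, *SLC7A5*, *CXCL8* and *PIGQ* were lost, and with the replicate block within each line also those of *CCL26* and *NHLRC4* (BY-adjusted p = 0.0528 and 0.053).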

How the results depend on the processing

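The number of names called in the response of HTOXAR3 stayed within 1.5 times of 6322 with a normexp offset of 50, the mean of all probes, the filter on dim probes, either 75th percentile scaling, BH adjustment, slide as a block and the deposited series table. It was 1194 above 2-fold, 2995 with only the groups compared, 116 and 165 within the slides, and 4975 to 5288 with 1 array left out. With the replicate number as a block in the 6 arrays 0 names were called (10902 at an unadjusted p below 0.05, limma). Deviations of same-numbered arrays of these groups correlated with mixed signs, so that pairing by number is not settled. Between the lines 309 became 670 with an offset of 50, 612 with the dim filter, 1250 with BH adjustment, 113 above 2-fold, 85 with only the groups compared, 17 with the replicate block, 163 with the block within each line (chosen after seeing the data), 2 and 0 within the slides (4336 at an unadjusted p below 0.05 on the latter), and 171 to 306 with 1 array left out, the count being 171, 188 and 200 without HTOXAR3 untreated replicates 1, 2 and 3, 186 and 179 without its combination replicates 1 and 3, 189 and 178 without HT29 untreated replicates 1 and 2, and 189 without HT29 combination replicate 2. Against OXA alone 3199 became 5128 with BH adjustment, 362 above 2-fold, 218 with only the groups compared, 0 with the replicate block, 4 and 8 within the slides, and 1954 (without treated replicate 3) to 2415 with 1 array left out. *ERCC5* changed sign with the mean of all probes (0.0693), 3 of its probes being dim on some arrays. The causes of the other shifts were not tested, though fits of fewer arrays have fewer degrees of freedom. Dim probes limit what could be measured.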
